A study of Drosophila melanogaster with 4 samples.

Results

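The genes described here are 10 minor eggshell and crosslinking genes of Drosophila melanogaster, chosen by name from the 15682 genes in the authors' deposited table. They are Femcoat, the uncharacterised eggshell genes CG13083, CG13084, CG13114, CG15570 and CG4066, the yellow family genes yellow-g and yellow-g2, and the haem peroxidase genes Pxd and Pxt. All 10 were found, and each was tested there.

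RNA was sequenced from ovary follicle cells in 2 groups of 2 libraries each. The EGFR-activated cells expressed UAS-EGFR-lambdatop, a version of the epidermal growth factor receptor that signals without its ligand, together with UAS-CD8-GFP, a membrane-bound GFP. The control cells expressed UAS-CD8-GFP alone, so the GFP was shared by both groups. In both groups juveniles grew at 18 °C, and adults spent 7 to 10 days at 29 °C until their ovaries were dissected. The submitters' design text describes the 2 replicates of each group as biological. The labels do not name the driver of the UAS transgenes, the number of flies in a library or the stages of the egg chambers. The lateness of these genes' expression was therefore not examined.

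The Drosophila eggshell is secreted by the follicle cells in layers, first the vitelline membrane next to the oocyte and later the chorion. Major structural proteins make up most of the chorion, and minor proteins and enzymes are laid down with them. The shell is hardened when its proteins are joined by covalent bonds. In the chorion these bonds are formed between tyrosines by a peroxidase that uses hydrogen peroxide. Some eggshell genes, among them the major chorion clusters and the locus of yellow-g and yellow-g2, are copied repeatedly in follicle cell DNA before they are transcribed.

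The comparison asks what an activated receptor does to transcripts in these cells. Values are from the authors' deposited table unless said otherwise. It gives the mean of a gene's normalised counts over all 4 libraries and its log2 fold change, EGFR-activated over control, with a standard error and an adjusted p from DESeq2's Wald test over all genes. Apart from the reads of Pxd, which were recovered from its mean but are not tied to groups, values of single libraries are not analysed here, so no level per group and no spread between replicates can be printed. The percentages of the control level and their 95% intervals below were computed from the deposited fold changes and standard errors. The authors' DESeq2 version by default shrinks fold changes towards 0, most of all in genes with few reads, so a percentage may lie nearer to 100% than the ratio of the 2 groups' normalised counts.

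Of the 10 genes, 9 were lower in EGFR-activated cells and 1, Pxt, did not pass the test (adjusted p under 0.05). Over all genes with an adjusted p, 17.5% were lower and 18% higher. The median log2 fold change of the 10 genes was −2.03, beside 0.06 over the 9409 genes with an adjusted p. By the deposited fold changes, the 9 lower genes stood at between 15.1% and 42.3% of the control level. The fold changes of 8 of them were more negative than those of at least 97.0% of the genes with an adjusted p, and that of yellow-g2 was more negative than 92.2% of them. In bulk RNA of this kind, fewer cells that express a gene and less RNA in each of them cannot be told apart.

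**Figure D1:**
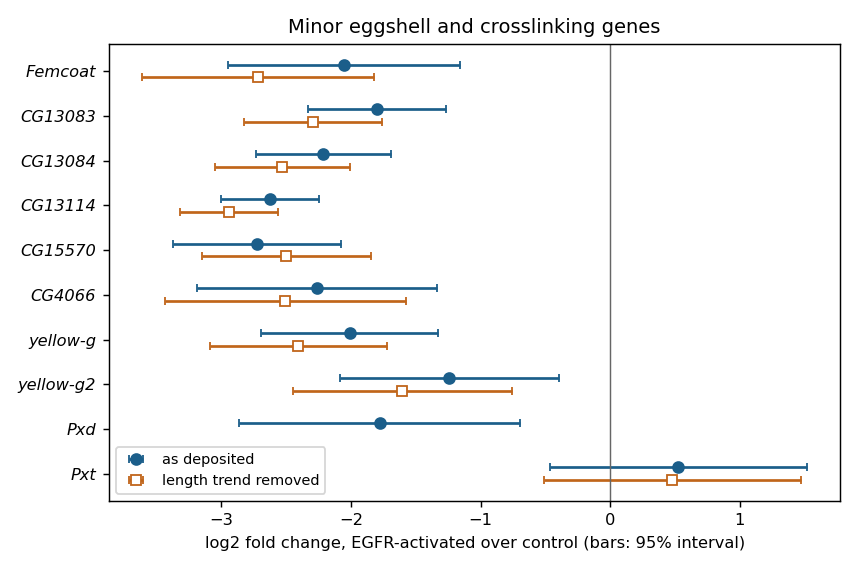
Log2 fold change (EGFR-activated over control) of the 10 genes on the horizontal axis, with 95% intervals as bars, as deposited (filled circles) and after removal of a trend on exonic length (open squares). The intervals of 9 genes lie below 0, and that of Pxt, at 0.53 as deposited, spans 0. Pxd has no open square because its mean was under 50.

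The 6 genes that are neither yellow genes nor peroxidases were all lower. In the authors' deposited table CG15570 had a mean of 22500 normalised counts and a log2 fold change of −2.72 ± 0.33 (SE; adjusted p = 2.24e-14). Its level in EGFR-activated cells was 15.1% of that in control cells (95% interval 9.65 to 23.8%). CG13114, with a mean of 17413, was at −2.62 ± 0.19 (adjusted p = 7.61e-39), or 16.2% of control (12.5 to 21.1%). By p-value it ranked at place 5 of the 9409 genes. Both fell, and the interval of CG13114 lies within that of CG15570.

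CG13083 and CG13084 are neighbours in the annotation, with no other protein-coding gene between them. CG13083 had a mean of 15475 normalised counts and was at −1.80 ± 0.27 (adjusted p = 1.23e-09), or 28.7% of control (19.9 to 41.5%). CG13084, with a mean of 4634, was at −2.21 ± 0.27 (adjusted p = 1.21e-14), or 21.6% of control (15.0 to 31.0%). Both fell, and their intervals overlap. Of the genes that flank the pair on its outer sides, CG10195 was at 0.55 ± 0.30 and CG10194 at 0.56 ± 0.33, and neither passed (adjusted p = 0.151 and 0.184). CG10194 also overlaps CG13083 in the annotation. The labels do not state whether reads were counted by strand, so reads of these overlapping genes may not be told apart.

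Femcoat, a gene of follicle cells needed for the chorion, had a mean of 1688 normalised counts. It was at −2.05 ± 0.46 (adjusted p = 7.57e-05), or 24.1% of control (12.9 to 44.8%). CG4066, with a mean of 549, was at −2.26 ± 0.47 (adjusted p = 2.23e-05), or 20.9% of control (11.0 to 39.7%). Both fell, with intervals wider on the log2 scale than those of the 4 more abundant genes above.

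The yellow proteins are a secreted family related to the royal jelly proteins of bees, and the founding member, yellow, is needed for black cuticle pigment. The genes yellow-g and yellow-g2 are the members known from the eggshell, and they are neighbours in the annotation. CG32302, which overlaps yellow-g there, had a mean of 7.31 normalised counts and no adjusted p. In the authors' deposited table yellow-g had a mean of 1415 normalised counts and was at −2.01 ± 0.35 (adjusted p = 1.89e-07), or 24.8% of control (15.5 to 39.9%). The mean of yellow-g2 was 365, and it was at −1.24 ± 0.43 (adjusted p = 0.0149), or 42.3% of control (23.6 to 75.9%). Both fell. The fall of yellow-g2 was the smallest of the 9, its call ended at a threshold of 0.01, and its interval overlaps that of yellow-g.

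Pxd encodes a haem peroxidase that has been linked to chorion hardening. Its mean was 10.5 normalised counts, so its fold change rests on few reads. It was at −1.78 ± 0.55 (adjusted p = 0.00608), or 29.2% of control (13.8 to 61.8%). With so few reads, this percentage is the one most open to shrinkage among the 10 genes. Its interval is built around the same deposited fold change, so it may not hold the ratio of the 2 groups' normalised counts. The gene for adenylosuccinate lyase, Adsl, overlaps Pxd in the annotation and is listed as CG3590. It had a mean of 518 and rose by 1.05 ± 0.28 (adjusted p = 0.00107), the opposite direction to Pxd. Whether reads were counted by strand is not stated in the labels, so reads of a gene and of one that overlaps it may not be told apart.

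Pxt encodes a haem peroxidase that acts as the fly's cyclooxygenase-like enzyme, needed for prostaglandin signals in egg chambers. It had a mean of 294 normalised counts and was at 0.53 ± 0.51 (adjusted p = 0.450), or 144% of control (72.4 to 287%). That interval includes falls as well as rises. It lies above the point values of the other 9 genes, 15.1% to 42.3% of control, but overlaps the interval of yellow-g2, which runs to 75.9%. The difference between Pxt and the other genes was not tested.

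The 10 genes spanned a wide range of levels. Per kilobase of exonic sequence, the mean normalised count was 13515 for CG13083, 11381 for CG13114, 5260 for CG15570, 3002 for CG13084 and 2026 for Femcoat. These 5 genes were above at least 94.3% of the genes with a p-value and a known length. On the same scale yellow-g stood at 1053, CG4066 at 311, yellow-g2 at 255, Pxt at 108 and Pxd at 4.01. Pxd was above 22.8% of genes. The gene structures differed too, with 1 exon in CG4066, 2 in Femcoat, CG13083, CG13084, CG13114 and yellow-g2, 3 in yellow-g, 8 in Pxt, 9 in each transcript of Pxd and 14 in CG15570.

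**Figure D2:**
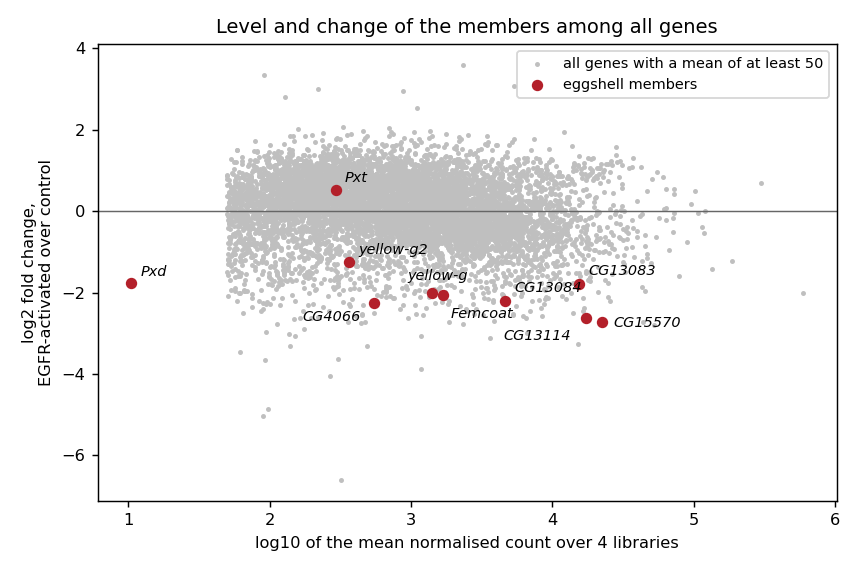
Log2 fold change (EGFR-activated over control) against the log10 of the mean normalised count over 4 libraries, for all genes with a mean of at least 50 and a known length (grey) and for the 10 eggshell genes (red). The 9 lower genes lie at −1.24 and below, from a mean of 10.5 (Pxd) to a mean of 22500 (CG15570), and Pxt lies above 0.

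The standard error of most of these genes was above what is typical for their level, in some only slightly. In 9 of the 10 it was above the median for genes whose mean lay within 2-fold of their own. For Femcoat it was 0.46, beside a median of 0.25 over 2360 such genes, and larger than that of 98.3% of them. It was larger than that of 96.1% of like genes for CG4066, of 94.7% for Pxt and of 91.1% for yellow-g2. For CG13084, CG13083 and Pxd these shares were 67.0%, 58.5% and 58.4%. CG13114 was the exception, with a standard error of 0.19 beside a median of 0.26, larger than that of 10.1% of like genes. CG15570 had a like mean and a standard error of 0.33. The standard error bears on how far a fold change is known, and with 2 libraries per group it is itself loosely known. In genes with few reads, such as Pxd, it may be small without the change being well known. The yellow family gene yellow-e2, with a mean of 0.324 normalised counts, had a standard error of 0.21.

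**Figure D3:**
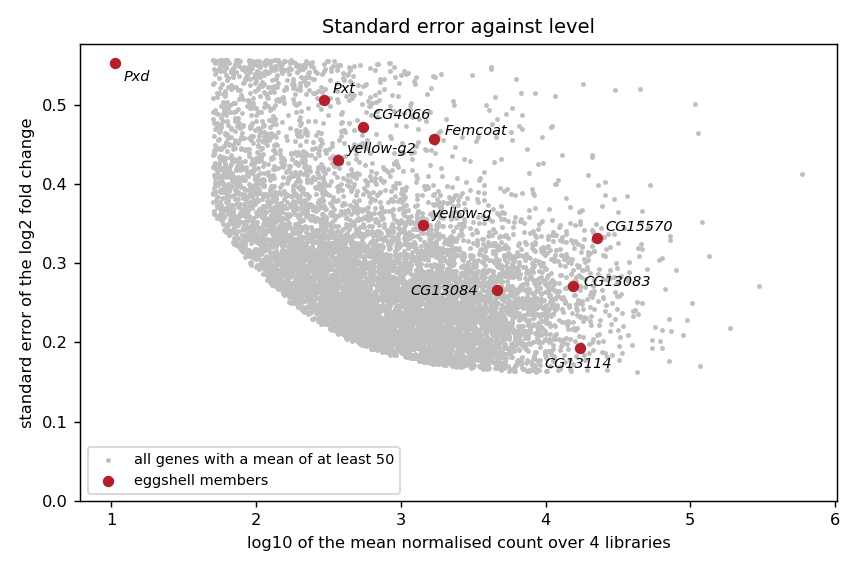
Standard error of the log2 fold change against the log10 of the mean normalised count over 4 libraries, for all genes with a mean of at least 50 and a known length (grey) and for the 10 eggshell genes (red). Femcoat, at 0.46, lies near the upper edge of genes of its level and CG13114, at 0.19, near the lower edge.

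Fold changes in this table vary with gene length, and the exonic length of the 10 genes ran from 833 bp in Femcoat to 4278 bp in CG15570. A smooth trend of fold change on length was therefore removed, fitted on the 7772 genes with a known length and a mean of 50 or more. Of the 9 genes that could be corrected, 8 were lower past the test, beside 16.9% of the 7772 genes, and none was higher, beside 11.3%. Their median was −2.50 after the removal and −2.05 before it. Femcoat stood at −2.71, CG13114 at −2.94, CG13084 at −2.53, CG4066 at −2.51, CG15570 at −2.50, yellow-g at −2.41, CG13083 at −2.29 and yellow-g2 at −1.60. All of these passed, with yellow-g2 at the largest adjusted p (0.00152), and Pxt stood at 0.48 (adjusted p = 0.532). In CG15570 alone among the lower genes the removal made the fold change smaller in size.

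Tested against a change of 2-fold rather than against no change, 3 of the 10 genes passed, beside 1.89% of the 9409 genes lower by that test. They were CG13114 (adjusted p = 2.33e-14), CG15570 (adjusted p = 1.71e-05) and CG13084 (adjusted p = 0.000321). CG13083 and yellow-g did not pass (adjusted p = 0.0646 and 0.0738), nor did CG4066 and Femcoat (adjusted p = 0.122 and 0.280), yellow-g2, Pxd or Pxt.

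The major structural genes of the shell give a scale for these changes. All 9 major chorion genes measured fell in the authors' deposited table, with a median of −2.17 and a range of −2.59 to −1.66. Of these, Cp7Fb was at −2.28 ± 0.24, Cp7Fa at −1.88 ± 0.32, Cp7Fc at −2.17 ± 0.43 and Cp19 at −2.59 ± 0.51. The fold changes of the 9 lower minor genes, −2.72 to −1.24, surrounded that range. Of 7 vitelline membrane genes, 1 (Vml) was lower past the test, at −1.36 ± 0.47, beside 17.5% of all genes with an adjusted p. Their median was −0.71. After removal of the length trend 6 of the 7 were lower past the test, beside 16.9% of the 7772 genes so corrected. Their median was then −1.43. When 0.92, the median of ribosomal protein genes, was subtracted from all fold changes, all 7 were lower, with a median of −1.63. By that scaling all 9 major chorion genes were lower too (median −3.09), beside 56.2% of the 9409 genes. The differences between these classes were not tested.

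Genes next to the minor eggshell genes were looked up in the RefSeq annotation of Release 6, by name only. Of 14 flanking protein-coding genes that are not themselves among the 10, 9 had an adjusted p, and of these 4 were lower and 0 higher. Over all genes 17.5% were lower and 18% higher, and no difference of the flanking genes from these shares was tested. Muc4B, which lies next to Femcoat, had a mean of 3853 normalised counts and fell by 2.71 ± 0.50 (adjusted p = 1.10e-06). The neighbour of Femcoat on its other side is CG15570, described above. CG13113, next to CG13114, fell by 1.24 ± 0.39 (adjusted p = 0.00619). The gene jp, which encodes a junctophilin and flanks CG13114 on the other side, was at −0.92 ± 0.32 (adjusted p = 0.0163), so it was lower too. CG8907, next to Pxd, fell by 1.56 ± 0.40 (adjusted p = 0.000747). The flanking genes that did not pass were CG10194, CG10195, CG15571, CG10013 and osa, at 0.56, 0.55, −0.92, −0.26 and −0.60. The other 5 had no adjusted p.

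Pxd was far less abundant than some other haem peroxidases. Per kilobase, the mean normalised count was 4.01 for Pxd, 8759 for Irc and 1707 for CG4009. Of 8 further genes of the family in the table, 3 were lower and 1 was higher, beside 17.5% and 18% of all genes with an adjusted p. The other 4 did not pass, and the median was −0.91. Here and in the lists below, genes without an adjusted p count as not past the test. Irc, known as an immune-regulated catalase, had a mean of 20934 normalised counts and fell by 1.99 ± 0.26 (adjusted p = 8.30e-13). CG4009, with a mean of 3780, fell by 2.24 ± 0.39 (adjusted p = 1.90e-07). CG10211, with a mean of 119, fell by 2.31 ± 0.46 (adjusted p = 8.69e-06). Duox, a dual oxidase that makes hydrogen peroxide and carries a peroxidase-like domain, was at 0.72 ± 0.27 (adjusted p = 0.0248), or −0.20 when 0.92, the median of ribosomal protein genes, was subtracted from all fold changes (centring on these genes). By that scaling 56.2% of the 9409 genes were lower and 1.02% higher, and the same 9 of the 10 eggshell genes were lower. Of the 7 further peroxidase genes with an adjusted p, 5 were then lower and 0 higher. Counting Pxd and Pxt, 4 of 10 genes of the family were lower and 1 was higher. The same 3 further genes were lower, and Duox was higher, after removal of the length trend.

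In the rest of the yellow family 2 of 12 genes were lower and 0 higher, beside 17.5% and 18% of all genes with an adjusted p. The other 10 did not pass, and the median was −0.40. Only 8 of the 12 had an adjusted p. After centring on the ribosomal protein genes 6 of the 8 with an adjusted p were lower (median −1.32), beside 56.2% of all genes. The genes yellow-f and yellow-f2, whose products are dopachrome-conversion enzymes of melanin synthesis, were at −1.79 ± 0.38 (adjusted p = 3.07e-05) and −1.27 ± 0.40 (adjusted p = 0.00648) in the authors' deposited table. Per kilobase, their mean normalised counts were 71.0 and 64.1, beside 1053 for yellow-g and 255 for yellow-g2. The founding member, yellow, listed as y, had a mean of 24.9 and was at −0.17 ± 0.49, not past the test (adjusted p = 0.828).

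**Figure D4:**
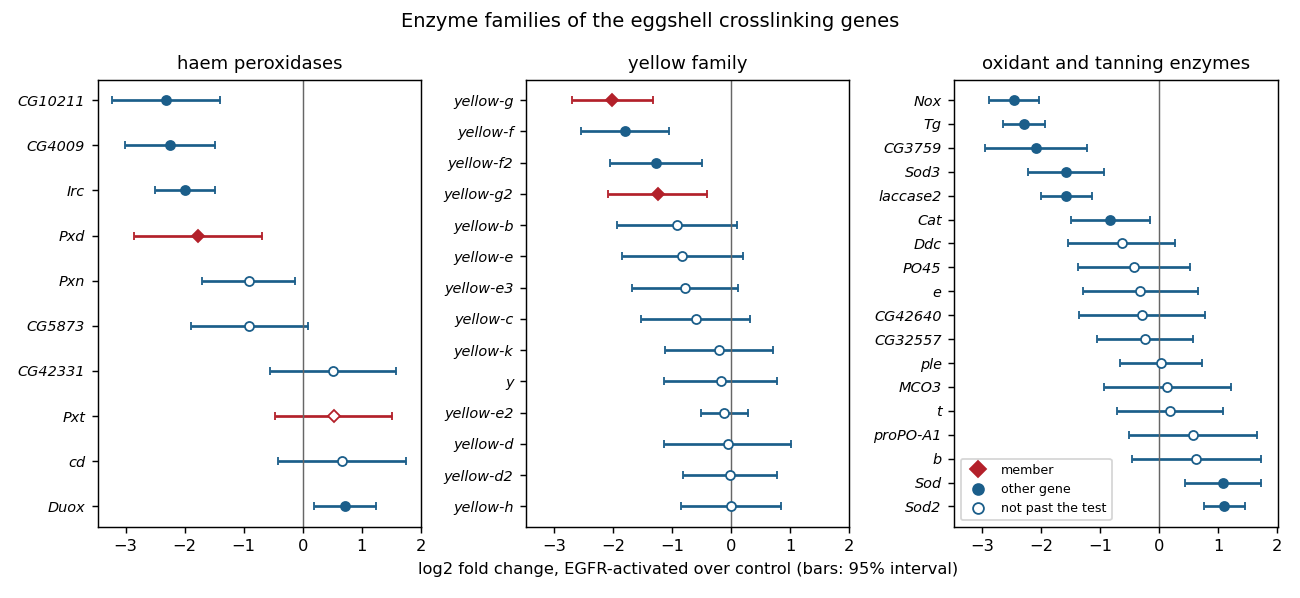
Log2 fold change (EGFR-activated over control) with 95% intervals for haem peroxidases (left), the yellow family (middle) and enzymes of oxidant supply, protein crosslinking and tanning (right). Red diamonds are Pxd, Pxt, yellow-g and yellow-g2, blue circles are other genes, and open symbols did not pass the test. Filled symbols below 0 include CG10211, CG4009 and Irc on the left and Nox, Tg, Sod3 and Cat on the right, and those above 0 are Duox, Sod and Sod2, of which Duox falls below 0 after centring on the ribosomal protein genes.

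Enzymes that supply oxidants or join and tan proteins moved both ways. Of 18 genes listed, 6 were lower and 2 higher, beside 17.5% and 18% of all genes with an adjusted p. The other 10 did not pass, and the median was −0.31. After centring on the ribosomal protein genes 9 of the 13 with an adjusted p were lower and 0 higher. Over all genes these shares were 56.2% and 1.02%. Tg, which encodes the transglutaminase that links glutamine to lysine side chains, had a mean of 1825 normalised counts and fell by 2.28 ± 0.18 (adjusted p = 1.50e-33). Nox, an NADPH oxidase that makes superoxide, had a mean of 16525 and fell by 2.46 ± 0.22 (adjusted p = 7.54e-27). The multicopper oxidase laccase2, which tans the cuticle, fell by 1.57 ± 0.22 (adjusted p = 4.35e-11), and CG3759, a further multicopper oxidase gene, fell by 2.09 ± 0.44 (adjusted p = 2.56e-05). The genes that clear oxidants moved both ways. Sod3, the extracellular superoxide dismutase, fell by 1.58 ± 0.33 (adjusted p = 1.89e-05). Cat, the catalase that breaks down hydrogen peroxide, was at −0.83 ± 0.34 (adjusted p = 0.0459), a call that ended when adjusted over all genes with a p-value (adjusted p = 0.0614). Sod2, the mitochondrial superoxide dismutase, was at 1.10 ± 0.18 (adjusted p = 1.49e-08), and Sod, the cytosolic form, at 1.08 ± 0.33 (adjusted p = 0.00486). The calls of Sod2 and Sod ended after centring on the ribosomal protein genes (0.18 and 0.16). With the length trend removed, both Tg and Nox passed, at −2.24 and −2.06, and both passed the test against a change of 2-fold.

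Genes tied to the copying of eggshell loci in follicle cells, both replication machinery and its regulators, were mostly not lower as deposited. Of 17 listed, 7 were higher, 1 was lower and 9 did not pass, with a median of 0.16. Over all genes 18% were higher and 17.5% lower. Geminin, an inhibitor of origin licensing listed as geminin, rose by 1.21 ± 0.18 (adjusted p = 6.75e-10). The origin recognition subunits Orc2 and Orc5 were at 1.16 ± 0.28 and 1.08 ± 0.32, the Myb complex gene mip40 at 0.93 ± 0.25, the cyclin E gene CycE at 0.86 ± 0.27, hd at 0.82 ± 0.28 and E2f2 at 0.63 ± 0.26, and each of these passed. The gene chif, whose mutants lay eggs with thin shells, fell by 0.87 ± 0.25 (adjusted p = 0.00250). With the length trend removed, 4 of 16 were higher and 0 lower, beside 11.3% and 16.9% over all genes so corrected. The call of chif then ended (−0.43, adjusted p = 0.204). With fold changes centred on the ribosomal protein genes, 0 were higher, 10 were lower and the median turned to −0.76. By that scaling 1.02% of all 9409 genes were higher and 56.2% lower. These genes serve the cell cycle in all dividing cells, and the copy number of the eggshell loci was not measured.

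Among 12 regulators of the late follicle cell, 5 were lower and 0 higher, beside 17.5% and 18% of all genes with an adjusted p. The other 7 did not pass, and the median was −0.66. After centring on the ribosomal protein genes 11 were lower (median −1.58), beside 56.2% of all genes. With the length trend removed 3 were lower and 1 higher (median −0.28), beside 16.9% and 11.3% over all genes so corrected. The nuclear receptor gene ftz-f1 was at −1.16 ± 0.26 (adjusted p = 0.000117), the ecdysone response gene Eip74EF at −1.09 ± 0.24 (adjusted p = 4.96e-05) and Sox14 at −1.09 ± 0.22 (adjusted p = 6.52e-06). These were the 3 that were lower once the length trend was removed. The calls of ttk (−0.77 ± 0.26) and Hr39 (−0.59 ± 0.19) ended with it. The gene that was higher after that removal was br, at 1.28.

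Markers of other cells in or near the ovary were read from the same comparison. As deposited, 17.5% of all genes with an adjusted p were lower and 18% higher. Of 6 follicle cell markers 2 were higher and 0 lower (median 0.38), and after centring on the ribosomal protein genes 3 were lower and 0 higher (median −0.54). The 2 higher markers, tj and eya, had means of 10707 and 5802 normalised counts and rose by 0.87 ± 0.24 and 0.90 ± 0.25 as deposited, or were at −0.05 and −0.02 after centring. Fas3, the most abundant of the 6 with a mean of 31666, was at −0.70 ± 0.33, not past the test (adjusted p = 0.0788). Of 13 muscle sheath markers 9 were lower and 0 higher (median −1.20), and of 5 fat body markers with a p-value 4 were lower and 0 higher (median −1.67), while Fbp1 was listed at 0. Of 8 germ line markers 0 were lower and 0 higher (median 0.19) by DESeq2, with 0 at an unadjusted p under 0.05 and means from 128 to 4500, and 2 were lower after centring on the ribosomal protein genes (median −0.73). Haemocyte markers had 1 of 5 lower, oenocyte markers 1 of 3 lower and 1 higher, and spermatheca markers 0 of 3 lower and 1 higher. After centring these counts were 3 lower for haemocytes, 2 lower for oenocytes and 1 lower for the spermatheca, with 0 higher in each. All 13 muscle sheath markers and all 4 fat body markers with an adjusted p were then lower, beside 56.2% of all genes. As deposited, the lower haemocyte marker was srp, with a mean of 10078, at −1.53 ± 0.25. The marker crq, with a mean of 6398, was at −0.43 ± 0.32 and did not pass (adjusted p = 0.309). Hml, eater and nimC1 had means under 50. The lower oenocyte marker was Cyp4g1, with a mean of 15064, at −3.27 ± 0.27 (adjusted p = 6.91e-31). The higher oenocyte marker was desat1, at 0.73 ± 0.23, and the higher spermatheca marker was lz, at 1.24 ± 0.48 with a mean of 21.4. Summed levels per group are not analysed here, and the part of other cell types in the changes of the eggshell genes was not tested.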

How the data were processed

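Ovary follicle cell RNA was sequenced in 2 EGFR-activated and 2 control libraries, after oligo-dT enrichment and ScriptSeq v2 preparation per the labels' protocols. The submitters' processing notes name TopHat2 2.0.10, HTSeq 0.6.1, DESeq2 1.2.10 and the build BDGP5. Per the file headers, the authors' deposited table lists for each gene a signal (the mean normalised count of all libraries), the log2 fold change with its standard error, the Wald score, and the p-value before and after adjustment. The authors' DESeq2 version by default shrinks fold changes, most of all in genes with few reads. Their second table, on transcription factors, was not used. Columns of other samples numbered 0.

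Of 15687 rows, the 5 naming no gene were left out; their shares of the summed means were 41.2% (alignments not unique), 4.94% (no gene), 0.896% (ambiguous) and 0. Depth per library is not analysed here.

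The deposited adjusted p was read at 0.05. The planned edgeR test needs counts per library and was not run. Length removal subtracted a lowess curve (span 0.3, statsmodels 0.14.6) of log2 fold change on log2 exonic length, taken by name from BDGP6 for 98.5% of the 7887 genes averaging 50 or more. P-values were then recomputed from fold change and standard error, with Benjamini-Hochberg adjustment, as in the test against 2-fold. The functions were tested on simulated data. Builds differ, so no coordinates are given.

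Members and lists were chosen with earlier results of these data known. All members are named, as are flanking genes with an adjusted p and genes overlapping a member. Called genes of the haem peroxidase and yellow families and of chorion gene amplification are also named. Other lists give up to 4 called genes with a mean of at least 50 and the smallest adjusted p, but the muscle sheath and fat body lists name none of theirs. Genes named beyond this rule (y, yellow-e2, Sod, Sod3, Cat, CG3759, ttk, br, Fas3, Fbp1, crq, Hml, eater, nimC1, lz) were chosen after their values were seen.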

Additional observations from a re-analysis of the deposited data

How the results depend on the processing

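Of the 10 genes, 9 passed the test as deposited, when adjusted over all genes with a p-value, at a threshold of 0.1, and when centred on the median of all genes (0.01) or on that of 81 ribosomal protein genes (0.92). At a threshold of 0.01, at a minimum mean of 50, and with the length trend removed at a span of 0.3 or 0.6, 8 passed. In the test against a change of 2-fold 3 passed. Centring on the ribosomal protein genes shifts every gene by −0.91 relative to centring on all genes. It turned Pxt to −0.39, not past the test (adjusted p = 0.518). Of 78 values of single members under these alternatives, 70 kept their direction and side of the threshold, 7 lost the call and 1 changed sign. Of 125 genes of the other lists with a p-value, 56 passed as deposited, 42 lower and 14 higher. Over all genes 17.5% were lower and 18% higher. In the test against 2-fold 10 of 113 passed, all lower, beside 1.89% of all genes. Centred on the ribosomal protein genes 84 of 113 passed, all lower, beside 56.2% of all genes. No paired analysis was possible because the table compares groups and the recovered reads of Pxd are not tied to samples, and for the same reason no replicate was left out.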

Other observations

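The low mean of Pxd allowed its reads to be recovered. A gene with a single read in all has a mean of 1 divided by 4 times the size factor of the library that holds it. The 4 lowest means that recur in 100 or more genes gave the size factors 1.46, 1.16, 0.786 and 0.773. The mean of Pxd had 1 solution in whole reads within a tolerance of 3e-08, namely 4, 1, 13 and 17 reads in these libraries, or 35 in all. That is 2.74, 0.863, 16.5 and 22.0 normalised counts. Nothing in the labels ties these libraries to samples, so they are in no comparison.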
